A study of Homo sapiens with 12 samples.

Results

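The comparison covers 6 of the 12 RNA sequencing libraries of a study of H9 cells, an established human embryonic stem cell line with wild-type genotype per the labels, although the title of the deposited sheet mentions a USP7 heterozygote. They are 3 libraries of cells taken through neural differentiation with the solvent DMSO (DMSO cultures) and 3 libraries of cells taken through the same differentiation with no addition (untreated cultures), chosen by their titles. Both groups shared the differentiation, in which confluent cells received the SMAD pathway inhibitors A83 and dorsomorphin at 2 µM each and then a neural stem cell medium with EGF at 20 ng/ml and bFGF at 5 ng/ml. The remaining 6 libraries, 3 of undifferentiated cells and 3 of neural cultures given FT671, an inhibitor of the deubiquitinating enzyme USP7, entered the model that estimates the spread and are otherwise quoted only as levels. DMSO was the vehicle of the FT671 experiment, so the comparison asks what the vehicle alone went with. Its concentration and duration were not given in the labels, and the treatment field of the DMSO samples reads undifferentiated where their titles read neural. All cultures come from 1 cell line, and nothing in the labels tells whether replicates were grown separately. The p-values therefore reflect differences among these libraries, which may be technical.

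DMSO is a polar organic solvent that carries poorly soluble drugs into culture medium, protects cells during freezing and, in larger amounts, pushes several cell lines toward differentiation. A neural progenitor culture made from embryonic stem cells is a sheet of PAX6- and SOX2-expressing cells in which N-cadherin replaces E-cadherin, and cells that keep or regain a non-neural epithelial character are recognised by keratins, E-cadherin, tight junction claudins and the epithelial splicing regulators. The genes KRT7, CDH1 and HES2 were taken as markers of such an epithelial fraction. In a bulk library, fewer cells of a type and less RNA per cell cannot be told apart.

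Over 13310 genes, read totals were 17149947 to 17198800 for the DMSO cultures and 16404262 to 17104970 for the untreated cultures. Values below are normalized read counts unless a fold change is named, with replicates 1, 2 and 3 in that order. Both groups expressed PAX6 and had almost no POU5F1, while other markers of a neural label were mixed against undifferentiated cells. Neural progenitor markers summed to 41586 to 45927 in the 2 groups, against 22130 to 26158. SOX2 had 1464 to 1729 in DMSO cultures and 1263 to 1387 in untreated cultures, against 8279 to 10746. Neuron markers summed to 683.4 to 850.7 in the 2 groups, against 2643 to 3011. PAX6, a transcription factor of neural progenitors, had 3754, 4250.1 and 3952 in DMSO cultures and 3549.5, 3681 and 3325 in untreated cultures. POU5F1, the core transcription factor of pluripotency, had 0 to 2.91 in DMSO cultures and 0 to 1.96 in untreated cultures, against 2281 to 2624 in undifferentiated cells. USP7 had 4054, 3820.1 and 3946 in DMSO cultures and 3928, 3679 and 3617 in untreated cultures (log2 fold change 0.08 ± 0.06 SE, limma adjusted p = 0.727).

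Untreated replicate 3 stood apart. Among the 10525 genes with a mean of at least 100 normalized counts, it differed by 1.5-fold or more from untreated replicate 1 in 511 genes and from untreated replicate 2 in 319 genes, while replicates 1 and 2 differed from each other in 9. The DMSO libraries differed among themselves in 11 to 116 such genes, with the larger counts in the 2 pairs that hold DMSO replicate 1. Between groups, a DMSO library differed from untreated replicates 1 and 2 in 51 to 138 genes and from untreated replicate 3 in 493 to 636. The deviation of untreated replicate 3 followed transcript length, with a Spearman rho of −0.646 across 11983 genes, which share these libraries and are not independent. Short transcripts were higher in it and long ones lower, and the difference between DMSO and untreated cultures carried the opposite trend (rho 0.455). With that library left out, the trend with length was −0.005. Values without untreated replicate 3 are therefore given beside many of the results, chiefly where leaving it out changed a call.

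**Figure D1:**
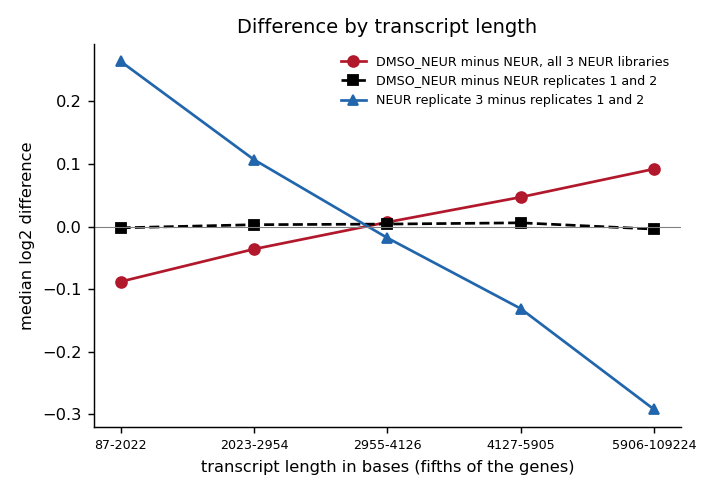
Median log2 difference (vertical axis) in 5 bins of transcript length in bases (horizontal axis), for genes with a mean of at least 30 normalized counts. Untreated replicate 3 minus untreated replicates 1 and 2 (triangles) runs from 0.264 in the shortest bin to −0.292 in the longest; DMSO minus untreated (circles) runs from −0.088 to 0.092, and stays between −0.004 and 0.006 without untreated replicate 3 (squares). The legend writes NEUR for untreated and DMSO_NEUR for DMSO cultures.

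Most of the transcriptome differed little between DMSO and untreated cultures. The median log2 fold change over all 13310 genes was 0.0004, the quartiles were −0.10 and 0.09, and 95% of genes lay between −0.52 and 0.32. The 95% interval of the log2 fold change lay within narrow limits, from −0.32 to 0.32, for 6311 genes (47.4%) and within 1.5-fold in either direction for 10887 genes (81.8%). Of the 10525 genes with a mean of at least 100, 6297 (59.8%) lay within the narrow limits and 10030 (95.3%) within 1.5-fold. Without untreated replicate 3 the count within the narrow limits over all genes was 7512. Only 28 of the 10525 had a point estimate of 1.5-fold or more, 27 of them lower and 1 higher, and 1, KRT7, was at 2-fold or more.

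Against this background, 53 genes (0.398% of those tested) passed a limma adjusted p under 0.05, 52 of them lower in DMSO cultures (0.391%) and 1 higher (0.00751%). The log2 fold changes of the 52 falls ran from −0.35 to −1.29 with a median of −0.69. At an unadjusted p under 0.05 there were 1059 genes (7.96%), 668 lower (5.02%) and 391 higher (2.94%), and 49.8% of all genes had a negative fold change. In all 52 the 3 DMSO libraries lay below the 3 untreated libraries, which was the case for 903 genes (6.78%) over the whole table, while 738 genes (5.54%) had all DMSO libraries above. Untreated replicate 3 was the highest untreated library in 25 of the 52 and the lowest in 12. Without it, all 52 kept a negative fold change, the smallest at −0.31, and 56 genes were called, 55 lower (0.413%) and 1 higher, 41 of them among the 53. Weighting libraries by their quality, which gave that library the low weight of 0.154, called 174 genes lower (1.31%) and 52 higher (0.391%). The number of calls differed between fits. It was 24, 30 and 31 when DMSO replicate 1, 2 or 3 was left out, 66 with edgeR's quasi-likelihood test, 29 without the undifferentiated libraries, 15 without the FT671 libraries and 0 when limma was fitted on the 6 libraries alone. In that last fit the smallest adjusted p was 0.158, 729 genes were at an unadjusted p under 0.05, all 52 falls among them, and edgeR and DESeq2 on the same 6 libraries called 11 and 41 genes. A core of 15 genes, among them HES2, CDH1, ITGB4, ESRP1, RAB25, ST14 and SLC2A3, were called in each of the 18 alternatives that kept all 4 groups in the model and in which the gene was tested.

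**Figure D2:**
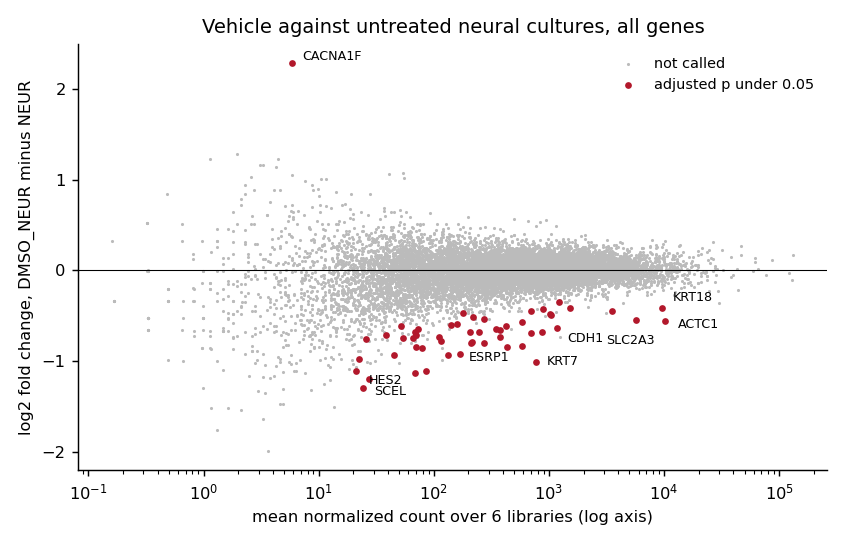
Log2 fold change of DMSO over untreated cultures (vertical axis) against the mean normalized count over the 6 libraries (horizontal log axis), 1 point per gene, with the 53 genes called by limma in red. The 52 called falls lie along the lower edge of the cloud or below it, and 1 called gene, CACNA1F, lies above it at a low count.

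Keratins form the intermediate filaments of epithelial cells, and KRT7, KRT8, KRT18 and KRT19 are those of simple epithelia. KRT7 (ENSG00000135480) had 440.5, 503.7 and 582.4 in DMSO cultures and 921.1, 952.0 and 1196 in untreated cultures. The highest DMSO library lay well below the lowest untreated library, and the mean in DMSO cultures was 0.498 times that in untreated cultures (95% interval 0.425 to 0.583, log2 fold change −1.01 ± 0.11, limma adjusted p = 3.89e-04). KRT18, which pairs with KRT8 in a filament, fell to 7740.0, 8287 and 8376 in DMSO cultures, against 10097, 10095 and 12446 in untreated cultures (−0.41 ± 0.08, adjusted p = 0.0354). KRT8 and KRT19 had log2 fold changes of −0.36 and −0.47 with groups that did not overlap, and they missed the threshold (adjusted p = 0.102 and 0.0765). Of the 9 keratins tested, 2 fell (22.2%, against 0.391% of all genes) and 8 had a negative fold change. KRT7, 1 of the 2, is a marker set with earlier results of these data known, so this share is not separate evidence. The family's median was −0.36, or −0.30 without untreated replicate 3, against 0.00 for all genes. KRT10, a keratin of stratified epidermis, stood at 0.04, and KRT15, KRT17 and KRT23 were at under 30 normalized counts in every library.

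Of the 52 falls, 14 were in a list of epithelial junction and polarity genes, which also holds genes of splicing, membrane traffic and proteolysis. They were 43.8% of the 32 tested, against 0.391% of all genes, and none rose. The list was written with earlier results of these libraries known. Of the 32, 26 had a negative fold change, against 49.8% of all genes, and 19 had all DMSO libraries below the untreated ones, against 6.78%. CDH1 (ENSG00000039068), which encodes E-cadherin of adherens junctions, had 853.8, 879.5 and 1021 in DMSO cultures and 1573, 1411 and 1286 in untreated cultures. The groups did not overlap, although the highest DMSO and the lowest untreated library, replicate 3 in both cases, were the closest (−0.63 ± 0.08, adjusted p = 0.00112). CDH3, P-cadherin, fell less, to 1062, 1032 and 1110.0 in DMSO cultures against 1365, 1393 and 1318 in untreated cultures (−0.35 ± 0.06, adjusted p = 0.0117). CDH1 and CDH3 were the 2 of 48 cadherins and protocadherins that fell (4.17%). In that family 20 fold changes were negative, and the median was 0.03, or −0.09 without untreated replicate 3. EPCAM, an adhesion protein of simple epithelia, had 881.1, 829.1 and 870.6 in DMSO cultures and 1213, 1082 and 1364 in untreated cultures (−0.50 ± 0.08, adjusted p = 0.0117). The claudins seal tight junctions, and 2 of 12 fell. CLDN7 had 213.9, 309.0 and 330.3 in DMSO cultures and 478.2, 408.0 and 514.0 in untreated cultures (−0.73 ± 0.13, adjusted p = 0.0169), and CLDN6, a claudin of embryonic epithelia, had 2797, 3156 and 3042 in DMSO cultures and 3939.7, 3694 and 4638 in untreated cultures (−0.44 ± 0.09, adjusted p = 0.0298). DMSO replicate 1 was the lowest library for both. CLDN12 and CLDN1, by contrast, had fold changes of 0.05 and 0.24, and the median of the 12 claudins was −0.03.

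The same list holds regulators of splicing, membrane traffic and proteolysis, which are among its 14 falls. ESRP1, which directs epithelial splicing, had 113.8, 125.0 and 110.4 in DMSO cultures and 247.4, 205.5 and 210.2 in untreated cultures, with a wide gap between the groups (−0.92 ± 0.10, adjusted p = 3.89e-04). Its paralog ESRP2 fell by 0.47 on the log2 scale (SE 0.09, adjusted p = 0.0258). RAB25, a small GTPase of apical recycling endosomes, had 72.9, 101.7 and 100.7 in DMSO cultures and 154.5, 160.5 and 211.2 in untreated cultures (−0.93 ± 0.13, adjusted p = 0.00215). AP1M2, which is outside that list, encodes a subunit of the AP-1B adaptor that sorts proteins to the basolateral membrane, and had 142.0, 152.1 and 171.0 in DMSO cultures and 249.3, 235.8 and 325.8 in untreated cultures (−0.79 ± 0.10, adjusted p = 0.00154). For RAB25 and AP1M2 untreated replicate 3 was the highest library, and without it the fold changes were −0.79 for RAB25 and −0.65 for AP1M2. MARVELD3 of tight junctions, the plakophilin gene PKP3 of desmosomes and the apical polarity gene CRB3 fell by 0.75, 0.68 and 0.62 on the log2 scale. The proteases matriptase (ST14) and prostasin (PRSS8) fell by 0.68 and 0.65, and SPINT1, the inhibitor that binds matriptase, by 0.41. A separate list of 35 matrix proteases and inhibitors held no limma, edgeR or DESeq2 call with all libraries equally weighted, and 1 lower with library weights. At an unadjusted p under 0.05, 3 of the 35 were lower and 2 higher. Among members of the junction list that were not called, DSP, which encodes desmoplakin, had 8282, 8201 and 9086 in DMSO cultures and 9340.3, 8823 and 6244 in untreated cultures, and OCLN, occludin, had 229.5, 233.4 and 268.7 in DMSO cultures and 258.1, 233.8 and 171.3 in untreated cultures. In both, the low untreated value is that of replicate 3, and the groups overlapped.

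**Figure D3:**
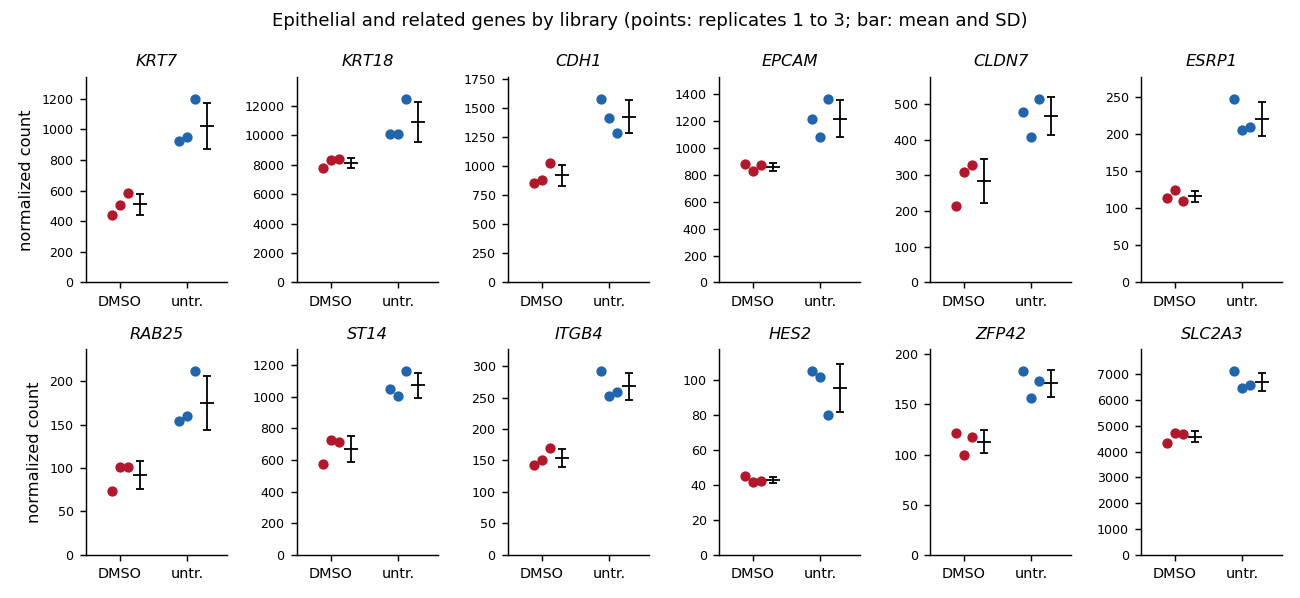
Normalized count (vertical axis, from 0) of 12 genes called lower, with 1 point per library in replicate order for DMSO cultures (red, left) and untreated cultures (blue, right, marked untr.) and bars for the mean and SD of 3 libraries. In each panel all 3 DMSO libraries lie below the 3 untreated libraries, for KRT7 at 440.5 to 582.4 against 921.1 to 1196.

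Hemidesmosomes anchor epithelia to laminin-332, and 2 of 9 genes of this group fell (22.2%, against 0.391% of all genes). ITGB4, the integrin β4 of hemidesmosomes, had 142.0, 150.1 and 169.1 in DMSO cultures and 291.4, 252.4 and 259.0 in untreated cultures, with no library between the groups (−0.80 ± 0.09, adjusted p = 4.06e-04). LAMB3, the β3 chain of laminin-332, fell by 0.52 on the log2 scale (SE 0.11, adjusted p = 0.0492, or 0.129 without untreated replicate 3, within a range of 0.00138 to 0.516 over its alternatives). LAMA3, the α3 chain, and the hemidesmosomal collagen COL17A1 had fold changes of −0.44 and −0.52 with groups that did not overlap and missed the threshold. The median of the group was −0.32, and −0.38 without untreated replicate 3. Integrin α6 (ITGA6) and plectin (PLEC), which many cell types use, stood at 0.01 and 0.03. In the wider list of 31 laminins and integrins, ITGB4 and LAMB3 were the 2 that fell.

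Genes of squamous and surface epithelia were at low levels and fell in part. SCEL, which encodes sciellin of the cornified envelope, had 9.72, 14.5 and 17.6 in DMSO cultures and 35.2, 32.3 and 36.9 in untreated cultures (−1.29 ± 0.22, adjusted p = 0.0140). SFN, 14-3-3σ, had 401.6, 391.3 and 444.6 in DMSO cultures and 647.3, 634.0 and 957.3 in untreated cultures (−0.83 ± 0.16, adjusted p = 0.0269). Untreated replicate 3 is the high value here, and without it the adjusted p of SFN was 0.0564, within a range of 4.45e-06 to 0.351 over its alternatives. These were the 2 of 12 squamous genes that fell (16.7%, against 0.391% of all genes). HES2 (ENSG00000069812), a bHLH repressor of the HES family, is 1 of the 3 markers set with earlier results of these data known. It was the 1 of 23 surface ectoderm, amnion and trophoblast genes that fell (4.35%, against 0.391%), so this share is not separate evidence. It had 44.7, 41.6 and 42.0 in DMSO cultures and 104.6, 101.8 and 79.7 in untreated cultures, and the 3 DMSO values lay closer together than the untreated ones (0.458 times, 95% interval 0.381 to 0.550, −1.13 ± 0.13, adjusted p = 4.06e-04). In that list 21 of 23 fold changes were negative, 10 members had all DMSO libraries lower (43.5%, against 6.78% of all genes) and 10 were lower at an unadjusted limma p under 0.05, against 5.02% of all genes. The median was −0.33, or −0.23 without untreated replicate 3, where 2 members were called. Among the members named here after their values were seen, the grainyhead factor GRHL2 had 43.8, 50.4 and 68.4 in DMSO cultures and 72.4, 97.8 and 84.7 in untreated cultures (−0.65 ± 0.15, adjusted p = 0.0863). TFAP2A, a factor of surface ectoderm, had 19.4, 18.4 and 15.6 in DMSO cultures and 34.2, 28.4 and 20.9 in untreated cultures (adjusted p = 0.262). The other tested members of the HES and HEY family showed no call by limma, edgeR or DESeq2. HES1 had 443.4, 525.0 and 501.3 in DMSO cultures and 494.8, 498.0 and 628.6 in untreated cultures, and no member besides HES2 had an unadjusted p under 0.05.

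Over the 8 epithelial lists together, 21 of 123 genes fell (17.1%), against 0.391% of all genes, and these lists were written with earlier results of these libraries known. Of the 8, the lists of S100 proteins with annexins and of EMT factors with mesenchymal genes held no call by limma, edgeR or DESeq2 with all libraries equally weighted. They had 6 and 3 members lower and 0 and 1 higher at an unadjusted p under 0.05. Limma with library weights called 1 member of each lower. Without untreated replicate 3, limma called 1 member of the EMT list, FN1, lower. ZEB1 and SNAI2, repressors of epithelial genes, had groups that overlapped. ZEB1 had 819.8, 763.2 and 811.0 in DMSO cultures and 779.3, 751.4 and 677.4 in untreated cultures. CDH2, the N-cadherin of neural progenitors, had 11148, 11408 and 11379 in DMSO cultures and 11889, 11386 and 9989.6 in untreated cultures (0.03 ± 0.13).

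Promoter sequences are shown for 4 of the genes that fell, chosen after the motif search because each holds the hexamer CAGGTG or its reverse complement CACCTG, an E-box form bound by zinc finger repressors of epithelial genes such as ZEB1 and SNAI1. The sequences are RefSeq promoters on GRCh38.p14, 250 bases before to 50 bases after the gene start, written 5′ to 3′ on the gene's strand with the hexamer in capitals.
HES2 promoter (chr1:6419870-6420169, minus strand): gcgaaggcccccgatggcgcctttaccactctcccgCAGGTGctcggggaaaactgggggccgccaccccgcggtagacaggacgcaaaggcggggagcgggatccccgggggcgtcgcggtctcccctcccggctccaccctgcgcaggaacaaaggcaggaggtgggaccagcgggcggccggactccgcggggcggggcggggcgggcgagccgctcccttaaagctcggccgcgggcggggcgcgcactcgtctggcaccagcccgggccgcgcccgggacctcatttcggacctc
RAB25 promoter (chr1:156060910-156061209, plus strand): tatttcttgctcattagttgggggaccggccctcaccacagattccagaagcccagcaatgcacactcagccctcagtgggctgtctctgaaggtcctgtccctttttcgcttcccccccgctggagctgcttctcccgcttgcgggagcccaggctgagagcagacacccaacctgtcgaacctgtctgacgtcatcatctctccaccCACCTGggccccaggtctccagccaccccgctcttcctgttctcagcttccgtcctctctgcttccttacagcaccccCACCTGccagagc
CLDN6 promoter (chr16:3018134-3018433, minus strand): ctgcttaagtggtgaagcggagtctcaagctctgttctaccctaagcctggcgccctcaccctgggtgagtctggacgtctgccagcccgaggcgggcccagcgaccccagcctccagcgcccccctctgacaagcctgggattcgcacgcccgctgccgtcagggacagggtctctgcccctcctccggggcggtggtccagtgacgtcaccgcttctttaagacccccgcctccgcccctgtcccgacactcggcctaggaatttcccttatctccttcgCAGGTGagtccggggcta
AP1M2 promoter (chr19:10587263-10587562, minus strand): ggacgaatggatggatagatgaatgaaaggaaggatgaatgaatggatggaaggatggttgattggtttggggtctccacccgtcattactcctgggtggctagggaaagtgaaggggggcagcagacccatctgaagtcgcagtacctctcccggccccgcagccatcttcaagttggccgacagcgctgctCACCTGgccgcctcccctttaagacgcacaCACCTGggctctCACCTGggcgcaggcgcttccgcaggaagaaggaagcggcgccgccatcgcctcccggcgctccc
HES2 and CLDN6 hold 1 copy each, RAB25 holds 2 and AP1M2 holds 3. A promoter was matched by symbol for 33 of the 53 called genes, and 19 of these held the hexamer on either strand (57.6%). The share was 29.6% (21 of 71) among members of the epithelial lists that were not called and 18.6% among the promoters of 10199 tested genes. GGGCGG, the GC box, stood in 63.6% of the called genes' promoters and 70.4% of all, TATAAA in 6.06% and 5.51%, and AACCGGTT, a grainyhead-type site, in 0 of 33 and 0.167%. These shares describe letters in a window and carry no test.

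Beyond the epithelial lists, single genes fell in several families. SLC2A3, the glucose transporter GLUT3, had 4351, 4714 and 4684 in DMSO cultures and 7105, 6451 and 6577 in untreated cultures (−0.55 ± 0.07, adjusted p = 6.99e-04). No library lay between the groups. SLC2A3 was the 1 of 27 glucose transporter and glycolysis genes that fell (3.7%, against 0.391% of all genes). Of the 27, 22 had an interval within the narrow limits. ZFP42, the pluripotency-associated zinc finger gene also called REX1, had 121.6, 99.8 and 117.3 in DMSO cultures and 182.9, 156.6 and 173.3 in untreated cultures (−0.60 ± 0.09, adjusted p = 0.00799). It was the 1 of 21 pluripotency genes called (4.76%), and the median of that list was 0.00. EPHA1, an ephrin receptor expressed in epithelia, had 65.2, 95.9 and 93.8 in DMSO cultures and 141.8, 146.8 and 143.4 in untreated cultures (−0.78 ± 0.12, adjusted p = 0.00693). It was the 1 of 62 axon guidance genes called (1.61%).

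Of 34 genes of TGF-β and BMP signalling, a pathway blocked during this differentiation, 2 fell (5.88%, against 0.391% of all genes). BMP4, a ligand that drives epidermal and extraembryonic fates, had 776.0, 735.1 and 743.6 in DMSO cultures and 963.2, 1045 and 1028 in untreated cultures (−0.43 ± 0.07, adjusted p = 0.0143). FST, follistatin, which binds activin and some BMPs, had 240.2, 278.9 and 287.3 in DMSO cultures and 413.6, 425.6 and 419.4 in untreated cultures (−0.64 ± 0.11, adjusted p = 0.0117). For both, the untreated libraries, replicate 3 included, lay close together. The BMP target ID1 had 852.9, 784.5 and 751.4 in DMSO cultures and 957.3, 984.3 and 1155 in untreated cultures and missed the threshold (−0.37 ± 0.09, adjusted p = 0.0937), and ID3 stood at 0.00. The receptors BMPR1A, ACVR2A and TGFBR1 had fold changes of −0.02, −0.04 and 0.14.

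In the interferon response list 1 of 19 genes fell, against 0.391% of all genes, and 2 were called by edgeR, by DESeq2 and by limma without untreated replicate 3. MX1, an antiviral GTPase, had 60.3, 43.6 and 63.5 in DMSO cultures and 119.3, 99.8 and 85.7 in untreated cultures (−0.86 ± 0.18, adjusted p = 0.0431), and it lost the call when any library other than untreated replicate 3 was left out. ISG15 had 814.9, 759.4 and 693.8 in DMSO cultures and 1012, 942.2 and 1283 in untreated cultures (−0.50 ± 0.11, adjusted p = 0.0705). OAS1, an antiviral oligoadenylate synthetase, had 25.3, 18.4 and 24.4 in DMSO cultures and 65.5, 47.0 and 26.9 in untreated cultures, with a log2 fold change of −0.93 that missed the threshold and of −1.27 without untreated replicate 3, where limma and edgeR called it. The list's median was −0.14 with and without untreated replicate 3. PTGS2, the inducible cyclooxygenase, had 48.6, 52.3 and 57.6 in DMSO cultures and 156.4, 104.7 and 92.6 in untreated cultures (−1.11 ± 0.20, adjusted p = 0.0227), and GPRC5A, a retinoic acid-induced receptor, had 184.8, 203.4 and 212.0 in DMSO cultures and 377.4, 315.1 and 353.6 in untreated cultures (−0.80 ± 0.10, adjusted p = 0.00112). The remaining genes among the 15 largest falls at a mean of at least 30 normalized counts were GPRIN2 (−0.93), ODAPH (−0.85) and MIR205HG (−0.84), the host transcript of a microRNA of epithelia. ACTC1, the cardiac α-actin, had the highest mean count of the 52, with 7789.6, 8916 and 8269 in DMSO cultures and 11994, 12089 and 12545 in untreated cultures (−0.55 ± 0.11, adjusted p = 0.0348).

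**Figure D4:**
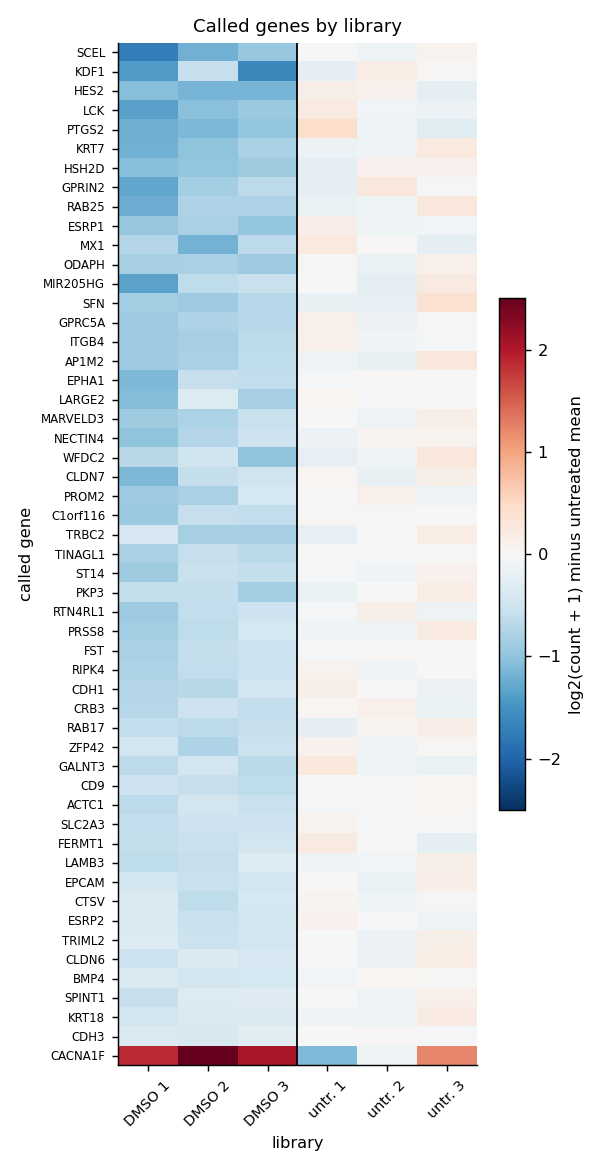
The 53 called genes (rows, ordered by fold change) in the 6 libraries (columns, DMSO left of untreated, marked untr.), coloured by log2 of the normalized count plus 1 minus the mean of the 3 untreated libraries. All 3 DMSO columns are blue for the 52 genes that fell; DMSO replicate 1 is the lowest library in 33 of them.

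The single rise was CACNA1F, a calcium channel subunit best known from the retina, and it is named here after its values were seen because its level is below the minimum set for naming. It had 6.81, 15.5 and 7.82 in DMSO cultures and 0, 0.980 and 3.98 in untreated cultures (2.28 ± 0.45 on the log2(count + 1) scale, limma adjusted p = 0.0354). It was the 1 of 73 ion channel genes called, and edgeR gave an adjusted p of 0.137, within a range of 1.45e-04 to 0.560 over its alternatives.

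Leaving out untreated replicate 3 added 15 calls and removed 12. In all 15 added genes that library was the lowest untreated one. FN1, which encodes fibronectin, had 22107, 21714 and 23513 in DMSO cultures and 31046, 30472 and 19077 in untreated cultures. With all libraries its groups overlapped (−0.23 ± 0.13, adjusted p = 0.678), and without untreated replicate 3 its log2 fold change was −0.46 with an adjusted p of 0.00163 by limma and 4.03e-04 by edgeR, within a range of 4.03e-04 to 0.988 over its alternatives. ITGA2, the collagen-binding integrin α2, had 2722, 2725 and 3006 in DMSO cultures and 4193, 3729 and 2612 in untreated cultures, with fold changes of −0.29 with all libraries and −0.49 without that one. The desmocollin gene DSC3, PROM1, which encodes prominin-1, and TFAP2A missed the limma threshold with all libraries and passed it without that one, all of them lower with DMSO. The genes that lost their call included SFN, LAMB3, WFDC2, NECTIN4, ODAPH, MIR205HG and ACTC1.

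The neural progenitor list held no limma call with all libraries equally weighted and no length correction. Without untreated replicate 3, limma called 1 of its genes, PROM1, lower. Limma called 2 lower with library weights and 2 lower with the length trend removed. The list had 23 tested genes with a median of 0.12, or 0.07 without untreated replicate 3. At an unadjusted p under 0.05, 3 were lower and 0 higher. OTX2, a forebrain and midbrain factor, had 1860.3, 1791 and 1867 in DMSO cultures and 2241, 2362 and 2280.2 in untreated cultures (−0.32 ± 0.07, adjusted p = 0.0603); it was called by edgeR and DESeq2, and PROM1 by DESeq2. SOX2 had 1729, 1464 and 1561 in DMSO cultures and 1263, 1387 and 1353 in untreated cultures, with all DMSO libraries higher (0.25 ± 0.16, adjusted p = 0.692). NES, which encodes nestin, had 27278, 27712 and 28225 in DMSO cultures and 25614, 24423 and 26531 in untreated cultures (0.12 ± 0.07, adjusted p = 0.678). SFRP2, a secreted WNT modulator, had 47406, 53376 and 51246 in DMSO cultures and 43097, 40268 and 43081 in untreated cultures (0.26 ± 0.18, adjusted p = 0.707). Groups did not overlap for SOX2, NES and SFRP2, yet none passed. Genes of neurogenesis (19 tested), SOX factors (15), glia (9) and neural crest (11) had no call by limma, edgeR or DESeq2. This held with all libraries equally weighted. Added over the 4 lists, 2 entries were lower and 5 higher at an unadjusted p under 0.05. A gene in more than 1 list, such as SOX9, was counted once in each. Without untreated replicate 3, limma called 1 neural crest gene, TFAP2A, lower, and with library weights it called 1 neural crest gene lower and 1 neurogenesis gene in each direction.

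The marker sets of 12 cell types, epithelial markers included, were summed in each library. The sum of the 3 epithelial markers was 1339 to 1646 in DMSO cultures and 2465 to 2599 in untreated cultures, and all 3 were called. These 3 were set with earlier results of these data known, so their calls and sum are not separate evidence. The 5 neural progenitor markers in the table, mostly from NES, summed to 44625 to 45927 in DMSO cultures and 41586 to 43016 in untreated cultures. Trophoblast markers (4 of 5 in the table) summed to 923.1 to 945.9 in DMSO cultures and 1036 to 1163 in untreated cultures, mostly from GATA3. Surface ectoderm and amnion markers (2 of 5) summed to 16.6 to 20.4 in DMSO cultures and 22.9 to 34.2 in untreated cultures, and neural crest markers (3 of 4) to 53.5 to 85.0 in DMSO cultures and 68.7 to 75.3 in untreated cultures. Pluripotency markers (3 of 4), mostly from DPPA4, summed to 1384 to 1469 in DMSO cultures and 1551 to 1621 in untreated cultures, and neuron markers (4 of 5) to 755.6 to 847.2 in DMSO cultures and 683.4 to 850.7 in untreated cultures. Mesenchyme markers (3 of 5) summed to 9579 to 15127 in DMSO cultures and 14030 to 16304 in untreated cultures, where DMSO replicate 1 gave the low end. Glia markers (2 of 4) summed to 37.9 to 42.6 in DMSO cultures and 44.0 to 51.9 in untreated cultures. Mesoderm markers (2 of 4) summed to 5.9 to 10.7 in DMSO cultures and 4.9 to 7.8 in untreated cultures, and CDH5, the 1 endothelial marker of 3 in the table, had 531.0 to 808.1 in DMSO cultures and 494.1 to 568.1 in untreated cultures. The sums did not overlap for neural progenitor markers, which were higher in DMSO cultures, nor for epithelial, trophoblast, surface ectoderm, pluripotency and glia markers, which were lower. Taken singly, 12.3% of all genes had groups that did not overlap, and the progenitor marker CDH2 overlapped. FOXD3 was at 0 in all 6 libraries, and SOX1, NANOG, TP63, KRT5 and the 4 endoderm markers were not analysed here. No marker outside the epithelial 3 was among the 53 genes called by limma. TFAP2A and VGLL1 were called in 2 and 1 of 22 alternatives, for TFAP2A including limma without untreated replicate 3. The part of any other cell type in the falls was not tested.

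Several families of basic cell functions held no call. All 18 aminoacyl-tRNA synthetases had a 95% interval within the narrow limits of −0.32 to 0.32, as had 18 of 22 cholesterol synthesis genes, 23 of 30 lysosomal genes, 28 of 37 DNA replication genes, 20 of 31 mitosis genes, 16 of 21 tubulins and 30 of 40 proteasome subunits, against 47.4% of all genes and 59.8% of those with a mean of at least 100. The share was 64.5% for the mitosis genes, 62.5% (35 of 56) for mitochondrial ribosomal proteins, 45.7% (32 of 70) for cytosolic ribosomal proteins and 37.3% (25 of 67) for nuclear genes of oxidative phosphorylation. None of the genes in the first 7 families was called by limma, edgeR or DESeq2, and 1 was lower and 6 higher at an unadjusted p under 0.05. Of the 6 higher, 4 were mitosis genes and 2 cholesterol synthesis genes, with 0 lower in either family. The mitosis genes had a median of 0.07 with and without untreated replicate 3. All DMSO libraries were higher for 5 of the 31, against 5.54% of all genes. The 70 cytosolic ribosomal proteins had a median of −0.12 with 66 negative fold changes, the 67 nuclear genes of oxidative phosphorylation −0.13 and the 56 mitochondrial ribosomal proteins −0.08. Without untreated replicate 3, in which these short transcripts were higher by medians of 0.39, 0.33 and 0.23 than in the other untreated libraries, the medians were 0.01, −0.02 and −0.01. RPL3, a ribosomal protein gene, had 22750.2, 23054 and 23465 in DMSO cultures and 22289, 23257 and 27244 in untreated cultures, and replicate 3 is the 1 library outside the range of the rest.

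With library weights, limma called 3 p53 targets and 1 gene of the oxidative stress and NRF2 list lower, and 1 DNA methylation gene higher. With all libraries equally weighted, 9 families of stress, xenobiotic and chromatin responses showed no call by limma. They were the heat shock and cytosolic chaperones (22 tested, median −0.03), the integrated stress and unfolded protein response (24, −0.03), oxidative stress and NRF2 targets (19, 0.01), the glutathione transferases with methionine sulfoxide reductases (16, −0.11, or −0.03 without untreated replicate 3), the xenobiotic and AHR response (10, 0.06), osmotic response genes with aquaporins (16, 0.11, or 0.01), p53 targets (28, −0.04), DNA methylation enzymes and readers (13, 0.11, or 0.03) and histone acetylation and deacetylation enzymes (25, 0.00). HSPA5, the chaperone BiP of the endoplasmic reticulum, had 12672, 11542 and 12202 in DMSO cultures and 11829.9, 12063 and 12210.0 in untreated cultures. HSPA8, a constitutive heat shock protein, had 16880.3, 12611 and 13012 in DMSO cultures and 14321, 14988 and 14346 in untreated cultures, with DMSO replicate 1 the highest. CDKN1A, the p53 target p21, had 6573, 6327 and 6756 in DMSO cultures and 6260.1, 6559 and 7049 in untreated cultures. TXNRD1, a thioredoxin reductase under NRF2 control, had 10031, 8557 and 9187 in DMSO cultures and 8535, 8226 and 6717 in untreated cultures, and its groups did not overlap. In these 9 families PRDX6 was the single gene called by DESeq2 and none was called by edgeR. Added over the lists, 9 were lower and 8 higher at an unadjusted p under 0.05, unevenly spread. The p53 targets had 5 lower and 0 higher, and 5 of the 28 had all DMSO libraries lower (17.9%, against 6.78% of all genes). Their median was −0.07 without untreated replicate 3. The DNA methylation and the histone acetylation lists each had 3 higher and 0 lower. Of the 65 lists, 50 held no limma call with all libraries equally weighted and no length correction. Over these 50, 1551 genes were tested and 741 lay within the narrow limits. At an unadjusted p under 0.05, 73 were lower and 43 higher, and edgeR called 1 and DESeq2 5.

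**Figure D5:**
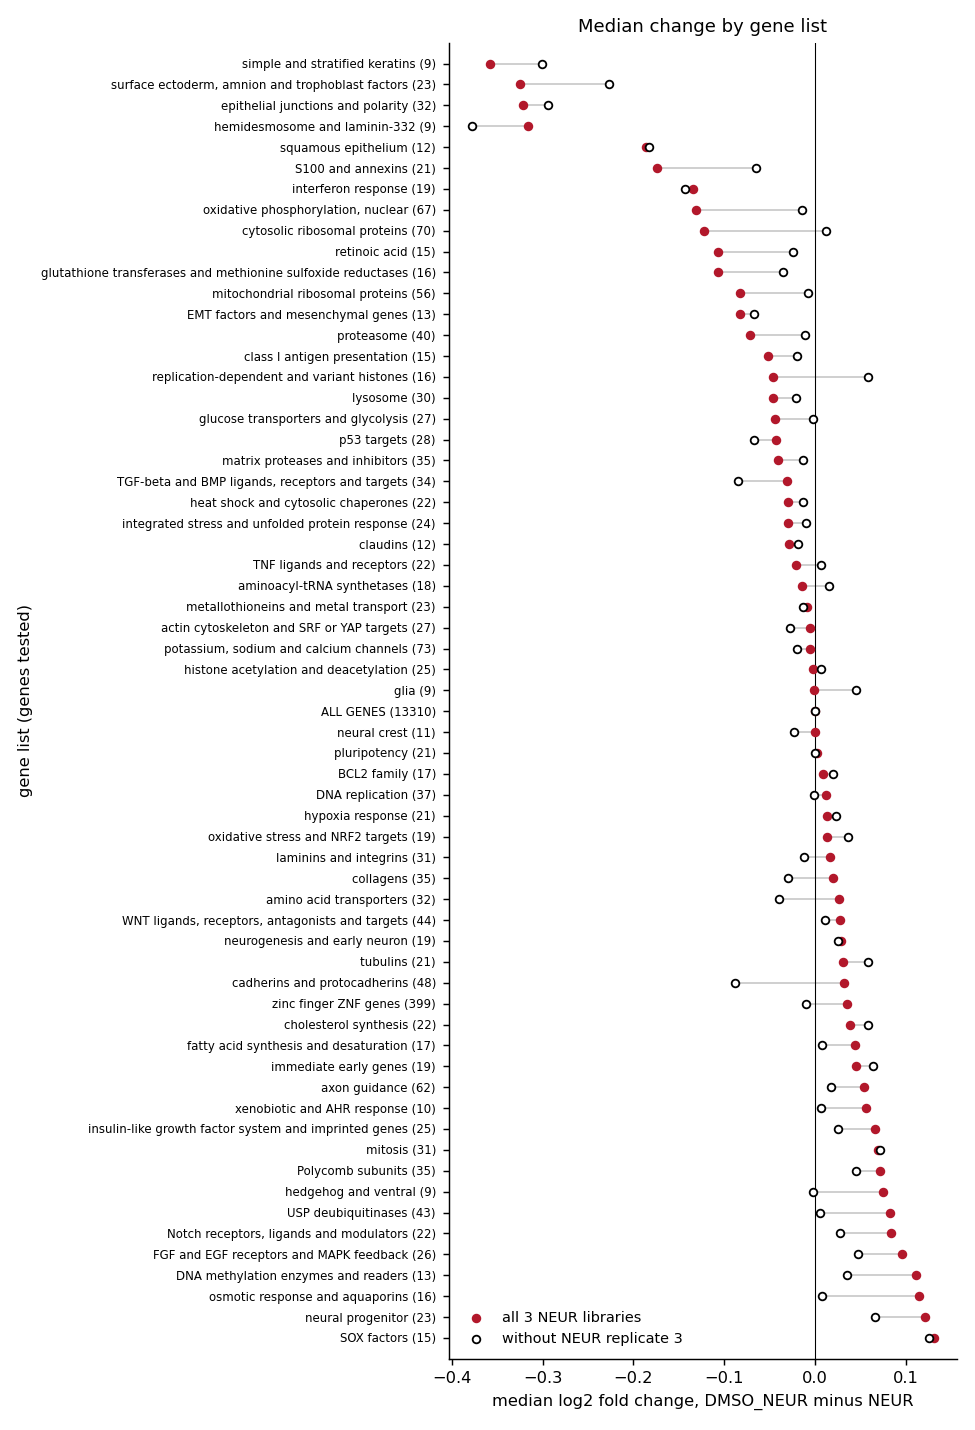
Median log2 fold change of DMSO over untreated cultures (horizontal axis) for gene lists with at least 9 tested genes (rows, number of genes in brackets), with all libraries (red) and without untreated replicate 3 (open); NEUR stands for untreated and DMSO_NEUR for DMSO cultures. Keratins, surface ectoderm factors, junction genes and hemidesmosome genes lie lowest in both, at −0.36 to −0.32 and −0.38 to −0.23, while ribosomal and oxidative phosphorylation genes move to near 0 without that library.

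Levels in the other conditions of the study are given for 5 of the genes that fell, the 3 markers and 2 chosen after their values were seen. Comparisons with those conditions share the DMSO and untreated libraries as controls, so only levels are given. KRT7 had 13852 to 16675 with FT671 and 271.7 to 285.4 in undifferentiated cells. CDH1 had 14005 to 15314 with FT671 and 3895 to 4086 in undifferentiated cells. HES2 had 2830.5 to 3341 with FT671 and 57.6 to 65.1 in undifferentiated cells. FST averaged 80.4 with FT671 and 5831 in undifferentiated cells, and ACTC1 368.4 and 584.6. For these 2, unlike the 3 markers, all FT671 libraries lay below all DMSO libraries. The 2 were not picked to represent the other falls. The sum of KRT7, CDH1 and HES2 was 1339 to 1646 with DMSO alone and 31199 to 34819 with FT671, against 2465 to 2599 in untreated cultures.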

How the data were processed

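RNA sequencing of polyadenylated RNA was analysed in 12 libraries, 3 in each of 4 groups. The submitters' processing notes name STAR, HTSeq, DESeq2 and the hg19 build, without roles or settings. The deposited signal is a normalized count plus 1, which was subtracted. Dividing by each library's step gave whole reads within 0.001 for all values, and these recovered reads served the count models as an alternative. Of the table's 47 columns, 33 were not used. Limma 3.58.1 was fitted to log2(normalized count + 1) with 4 group means and a trended variance, p-values were adjusted by Benjamini-Hochberg over 13310 genes, and genes were called at an adjusted p under 0.05. Every ± after a log2 fold change is a standard error. With 3 libraries against 3, an exact permutation test cannot go below 0.1, so no such test is given. Transcript lengths come from GENCODE for 13110 genes (98.5%). Replicates are numbered as in the labels. The members and gene lists were chosen with earlier results of these data known. Named genes are the 3 markers, USP7, the 15 largest called falls and rises with a mean of at least 30 and no overlap, up to 4 called members per list, up to 3 members of highest level in lists without a call, and cell type markers; other genes given beside them were chosen after their values were seen. Alternatives were edgeR 4.0.16, DESeq2 1.42.0, other scalings, pseudocounts and filters, library weights, removal of the length trend, and fits without single libraries or groups. The model scripts were tested on simulated data. Some genes are not reported here.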

Additional observations from a re-analysis of the deposited data

How the results depend on the processing

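The direction of every called gene was the same in all 24 alternatives in which it was tested, while the number of calls was not. Against 53 calls (52 lower, 1 higher), leaving out 1 library gave 24 to 56 calls, 24 to 55 lower and 0 to 1 higher, with the fewest without DMSO replicate 1. Limma on the 6 libraries alone gave 0 calls, 0 lower and 0 higher, edgeR on them 11, all lower with 0 higher, DESeq2 on them 41 lower and 0 higher, and edgeR on them without untreated replicate 3 gave 33, 32 of them lower. Limma gave 29 calls without the undifferentiated libraries and 15 without the FT671 libraries, all lower with 0 higher. A mean of at least 100 left 34 calls, all lower with 0 higher, and DESeq2 gave 111, 104 lower and 7 higher. Library weights, which gave untreated replicate 3 a weight of 0.154, led to 226 calls, 174 lower and 52 higher. There was 0 higher with a pseudocount of 0.5 or with edgeR, 3 with the length trend removed and 2 with edgeR without untreated replicate 3. Fewer samples or genes enter several of these fits; otherwise the cause was not tested. With the replicate block there were 41 calls, 40 lower, 39 of them shared; same-numbered libraries did not deviate together (correlations −0.077, −0.103 and −0.081), so they share only a number. Counts limit genes of low level, such as CACNA1F.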
